A study of Mus musculus with 2 samples.

Results

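The surfactant genes described here are 10 of the 32285 genes in the deposited matrices, found by their symbols. They are the surfactant proteins Sftpa1, Sftpb, Sftpc and Sftpd, the lamellar body genes Abca3 and Lamp3 and the acyltransferase gene Lpcat1. The others are the phosphate transporter gene Slc34a2 and the processing proteases Napsa and Ctsh. All 10 symbols matched 1 gene ID each and all 10 had counts in both libraries. The libraries came from whole lung of C57BL/6 mice with the I73T mutation of surfactant protein C, SP-C I73T, carried by the control library too. In this line 175 mg/kg of tamoxifen by mouth in corn oil removes a neo cassette and so raises expression of the mutant protein. This dose is listed for both libraries. The first library was titled injured, with lung taken 14 days after injury, and the other was titled control, for the steady state. The tags ran against the titles, since the injured library was tagged untreated and the control library was tagged tamoxifen treated. Groups follow the titles here. Before the collagenase digest the airspaces had been rinsed and the vessels flushed, red cells were removed afterwards, and droplet libraries of transcript 3′ ends were made. Age and the number of animals per library are not given in the sources used here.

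Pulmonary surfactant is a film of phospholipid and protein that lowers surface tension in the alveolus. It is made by alveolar type 2 (AT2) cells, which assemble it in lamellar bodies and secrete it. The hydrophobic proteins SP-B and SP-C are cut from larger precursors on the way to the lamellar body, while the collectins SP-A and SP-D bind microbes and carbohydrate in the airspace and are also made by secretory cells of the airway. Alveolar type 1 (AT1) cells are the flat cells of gas exchange, and AT2 cells are their progenitors. A 3′ count does not tell the mutant Sftpc transcript from the wild-type one.

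Levels are UMI counts (molecules tagged by a unique identifier) summed over the cells of a class and given as CPM (scaled so that all genes of the class add up to 1e+06). With 1 library per group there was no test. A member was called higher or lower at 1.5-fold or more if both libraries together held at least 10 of its counts, and all 95% intervals cover counting error only. The filters left 2302 injured cells (19725664 UMIs, median 3260 per cell) and 2298 control cells (16063780 UMIs, median 4500), and the libraries shared 1 barcode. Cells were clustered without the 10 members, and classes were named from markers that include none of them. In summed counts of a class, fewer cells with a gene and fewer transcripts per cell cannot be told apart, so shares of cells are given as well.

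The border between the alveolar classes bears on every result below. The AT2-like cluster held 11 injured and 63 control cells, and Sftpa1 and Sftpc were among its 10 leading genes although neither was used to form it. All its cells were shallow, with at most 3475 UMIs and medians of 946 and 1225. The AT1-like cluster held 90 injured cells, with a median of 11397 UMIs, and 20 control cells, with a median of 994.5. Of the joined list of AT1 and transitional markers 25 genes marked this cluster, and so did 8 AT2 markers; transitional cells are Krt8-high cells known from the passage between the AT2 and AT1 states. At a clustering resolution of 0.5 the same 101 injured and 83 control cells fell into 1 cluster, so values for both clusters together are given too. The secretory-like cluster held 80 injured and 118 control cells.

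The promoters of 6 members were in the RefSeq table of build GRCm38.p6, and those of Sftpc, Sftpd, Napsa and Ctsh were not. The 250 bases before the start of 4 of them are shown, which are those with a match to any of the 4 words named next. The matches were not compared with the direction in which levels moved. Capitals mark matches, on either strand, to CTCAAG (the core bound by NKX2-1, the lung lineage factor), TGTTTAC (forkhead factors), TTGCGCAA (C/EBP factors) and TATAA (the TATA box). Sftpa1 lies at chr14:41131538-41131787 on the plus strand, Sftpb at chr6:72304360-72304609 on the plus strand, Lamp3 at chr16:19706366-19706615 on the minus strand and Slc34a2 at chr5:53049103-53049352 on the plus strand. The Slc34a2 stretch lies within the span of its gene (53038081 to 53071664), so the start used for it is an internal one.
Sftpa1: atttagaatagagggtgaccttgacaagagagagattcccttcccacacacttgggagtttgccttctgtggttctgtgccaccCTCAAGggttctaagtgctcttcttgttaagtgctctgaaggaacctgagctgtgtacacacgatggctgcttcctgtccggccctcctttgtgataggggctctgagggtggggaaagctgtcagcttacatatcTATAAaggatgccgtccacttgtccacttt
Sftpb: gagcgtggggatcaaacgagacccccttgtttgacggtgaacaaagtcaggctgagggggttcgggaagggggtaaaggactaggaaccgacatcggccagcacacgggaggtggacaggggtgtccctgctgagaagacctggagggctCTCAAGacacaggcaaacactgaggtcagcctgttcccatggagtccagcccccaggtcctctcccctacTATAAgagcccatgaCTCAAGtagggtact
Lamp3: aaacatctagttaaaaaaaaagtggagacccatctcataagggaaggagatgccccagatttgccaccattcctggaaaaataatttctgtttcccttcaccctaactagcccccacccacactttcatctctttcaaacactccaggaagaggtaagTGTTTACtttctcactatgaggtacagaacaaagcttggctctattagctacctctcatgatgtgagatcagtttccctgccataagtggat
Slc34a2: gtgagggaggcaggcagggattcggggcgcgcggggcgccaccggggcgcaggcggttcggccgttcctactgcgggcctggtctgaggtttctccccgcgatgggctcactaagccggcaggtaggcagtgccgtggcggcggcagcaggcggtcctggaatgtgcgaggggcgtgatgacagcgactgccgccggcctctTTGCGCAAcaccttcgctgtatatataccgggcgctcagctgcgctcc
CTCAAG was found once in Sftpa1, at 166 to 161 bases before the start, and at 2 places in Sftpb, at 100 to 95 and 15 to 10. TATAA lay 30 to 26 bases before the start of both. TGTTTAC stood in Lamp3 at 92 to 86 bases before the start, and TTGCGCAA in Slc34a2 at 48 to 41. The promoters of Abca3 and Lpcat1 held none of the 4 words. Of 32851 promoters of this length, 13.3% held CTCAAG, 3.17% TGTTTAC, 0.164% TTGCGCAA and 22.8% TATAA, and a match describes letters, not binding.

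The clearest difference between the libraries was the balance of SP-A and SP-C transcripts. In AT2-like cells Sftpa1, the SP-A gene (ENSMUSG00000021789, chromosome 14, 41131782 to 41136452, plus strand of GRCm38), stood at 7403 CPM (95% interval 6067 to 8946) in the injured and at 25001 CPM (23964 to 26072) in the control library. It was thus 3.38-fold lower (2.78 to 4.14). Sftpc, the SP-C gene (ENSMUSG00000022097, chromosome 14, 70520949 to 70524081, minus strand), stood at 31687 CPM (28851 to 34726) against 22438 CPM (21456 to 23454), a ratio of 1.41 (1.27 to 1.56) that stayed under the 1.5-fold rule. Of the UMIs of both genes, Sftpa1 held 18.9% (15.8 to 22.4) in the injured and 52.7% (51.2 to 54.2) in the control AT2-like cells, a share that does not depend on the class total.

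The same order held cell by cell. Sftpa1 was found in 63 of 63 control AT2-like cells, at 4 to 135 UMIs with a median of 25, and in 7 of 11 injured ones, at 0 to 47 UMIs with a median of 3. Sftpc ran from 0 to 235 UMIs (median 19) in control and from 0 to 112 UMIs (median 23) in injured AT2-like cells, so its ranges overlapped almost wholly. Sftpa1 exceeded Sftpc in 38 of 63 control cells and in 0 of 11 injured cells, while Sftpc exceeded Sftpa1 in 24 control and 10 injured cells. With both alveolar classes together the share of Sftpa1 was 9.16% (8.52 to 9.83) against 52.7% (51.1 to 54.2), and over all cells of the library it was 19.2% (18.4 to 20.05) against 66.9% (65.7 to 68.0).

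**Figure D1:**
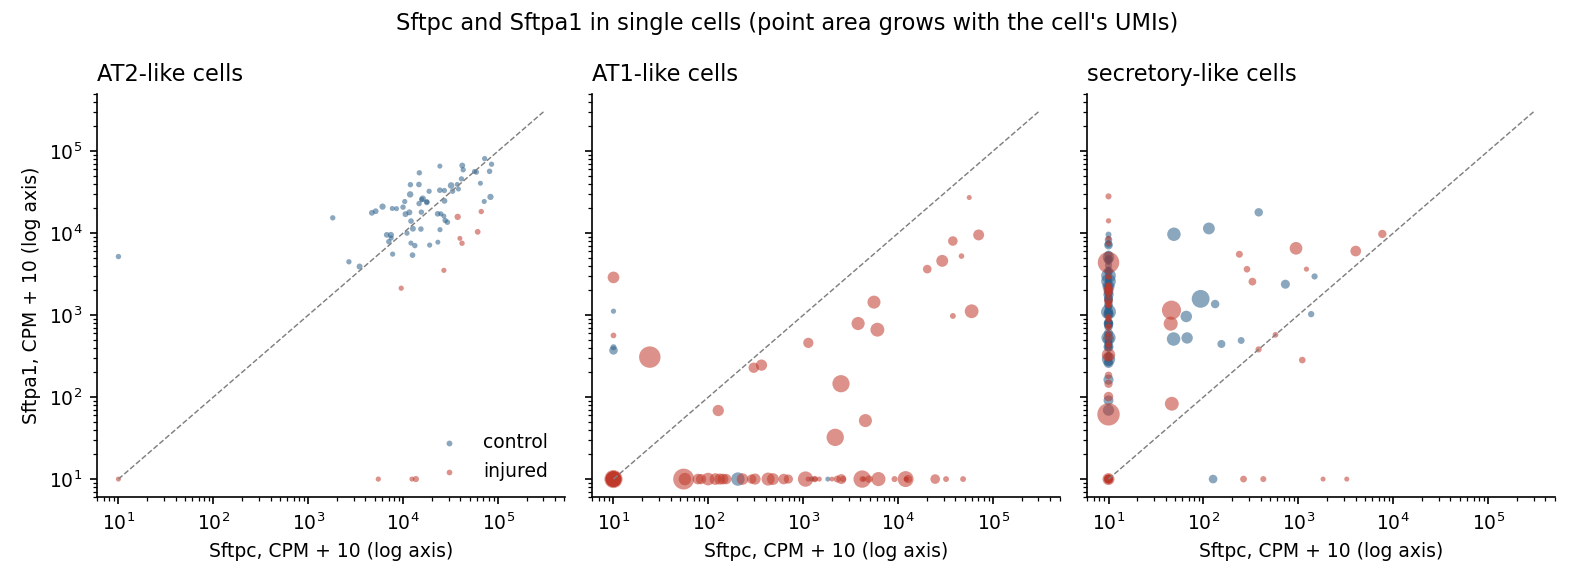
Each point is 1 cell, with Sftpc on the x axis and Sftpa1 on the y axis, both as CPM with 10 added and on log axes; the dashed line marks equal levels and the point area grows with the cell's UMIs. Control AT2-like cells lie around the line, all injured AT2-like cells with UMIs of either gene lie below it, and secretory-like cells of both libraries lie mostly above it.

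Of the other members in AT2-like cells, Ctsh and Slc34a2 were higher in the injured library. Ctsh, the lysosomal protease cathepsin H that trims the SP-B and SP-C precursors (ENSMUSG00000032359, chromosome 9, 90054152 to 90076089, plus strand), stood at 1591 CPM against 389 CPM, 4.09-fold higher (2.30 to 7.15), from 23 and 34 counts. Slc34a2, the sodium-phosphate cotransporter of the AT2 cell surface (ENSMUSG00000029188, chromosome 5, 53038081 to 53071664, plus strand), stood at 1107 CPM against 343 CPM, 3.22-fold higher (1.64 to 6.11). Of the injured cells 8 of 11 held it, and of the control cells 19 of 63. Lpcat1, the acyltransferase that makes dipalmitoyl lipid (ENSMUSG00000021608, chromosome 13, 73467197 to 73516422, plus strand), had 4 and 9 counts, and its ratio of 2.69 had an interval of 0.605 to 9.63.

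The rest of the list did not pass the size rule in AT2-like cells. Sftpb (ENSMUSG00000056370, chromosome 6, 72304610 to 72314371, plus strand), the hydrophobic protein needed to form the film, stood at 2214 CPM and 2426 CPM. Sftpd (ENSMUSG00000021795, chromosome 14, 41172214 to 41185149, minus strand), the SP-D collectin, stood at 2145 CPM and 2586 CPM. Napsa (ENSMUSG00000002204, chromosome 7, 44572380 to 44586862, plus strand), the aspartic protease napsin A, stood at 1799 CPM and 1282 CPM, and Lamp3 (ENSMUSG00000041247, chromosome 16, 19653378 to 19706375, minus strand), a lamellar body membrane protein, at 277 CPM and 275 CPM. Abca3 (ENSMUSG00000024130, chromosome 17, 24351950 to 24410201, plus strand), the lipid transporter of lamellar bodies, had 1 and 5 counts, too few for a call. In all, 3 of the 9 members with enough counts were higher, 1 was lower and 5 lay between, while 32.9% of all 1108 genes with enough counts were higher and 19.9% lower, so the number of higher calls was at the background. One injured cell held 43.9% of the class's Sftpa1 UMIs, 50% of its Sftpb and 58.1% of its Sftpd. Without the cell richest in member UMIs in each library 3 members were lower, Sftpa1, Sftpb and Sftpd, at log2 ratios of -2.25, -0.68 and -1.16, and the number higher was still 3.

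Markers of the class moved with these values. The summed AT2 markers, 18 genes of which 11 were detected in the injured and 18 in the control cells, ran from 1091 to 20619 CPM per cell (median 6342) in the injured and from 4292 to 48007 CPM (median 20360) in the control AT2-like cells. Transitional markers (15 genes) had medians of 3011 and 353 CPM, and secretory markers (13 genes) had medians of 0 and 6884 CPM. Scgb1a1, the secretoglobin of airway cells, stood at 969 and 4954 CPM in AT2-like cells, and Lyz2, a lysozyme gene of AT2 cells and macrophages, at 4705 and 41753 CPM. Their part in the differences was not tested. B and T cell-like cells, taken as a reference that should not make surfactant, held 5.36 CPM of Sftpa1 (injured) and 27.6 CPM (control), 1381-fold and 906-fold below AT2-like cells. This reference was uneven: 4 of 612 control cells with 5 or more Sftpc UMIs held 36 of its 66 Sftpc and 41 of its 95 Sftpa1 UMIs, and 1 of 271 injured cells held 6 of 24 Sftpc UMIs. Without those cells, a setting chosen after seeing the data, Sftpa1 stood at 4.77 and 15.9 CPM in the reference, 1552-fold and 1572-fold below AT2-like cells.

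**Figure D2:**
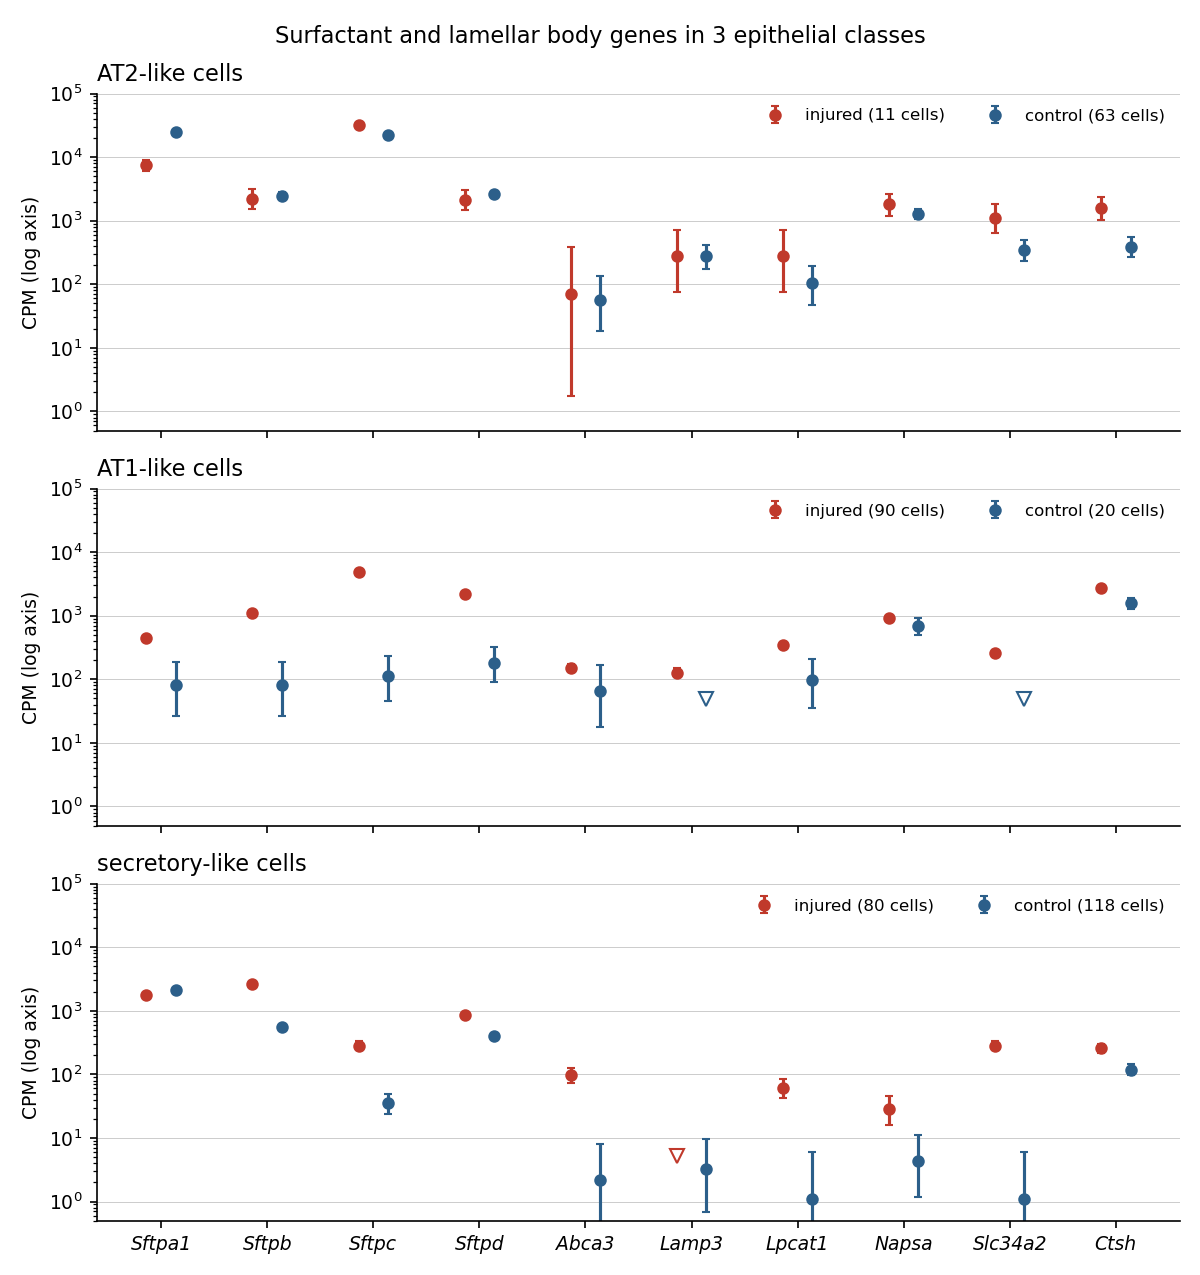
Summed level of each member in CPM on a log axis, in 3 epithelial classes, injured in red and control in blue; bars are exact Poisson 95% intervals, and open triangles mark the level of 3 counts where none was found. In AT2-like cells Sftpa1 is lower in the injured library, while in AT1-like and secretory-like cells most members are higher there.

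In AT1-like cells nearly the whole set was higher in the injured library, and the markers of the class differed too. Summed AT1 markers had medians of 13691 CPM per cell (injured) and 41673 CPM (control), AT2 markers 3020 and 0 CPM and transitional markers 11001 and 4943 CPM; their part in the result was not tested. Of the 10 members 9 were higher and none was lower, against 18.2% of all 9303 genes higher and 24% lower, and the median log2 ratio was 2.14 for the members and -0.11 for all genes. Sftpc stood at 4907 CPM (4787 to 5029) against 114 CPM (45.7 to 234), 43.2-fold higher (20.96 to 108), but the control value rested on 7 counts. Sftpb was 13.7-fold (5.84 to 42.1), Sftpd 12.3-fold (6.85 to 24.6) and Sftpa1 5.52-fold (2.35 to 17.1) higher, from 5, 11 and 5 control counts. Slc34a2 and Lamp3 had 339 and 166 counts in the injured and 0 in the control cells. Taking 3 counts for the control class, they were at least 5.35-fold and at least 2.62-fold higher. Lpcat1 was 3.62-fold (1.65 to 9.90) and Ctsh 1.74-fold (1.42 to 2.15) higher. Abca3 was 2.31-fold higher with an interval that includes 1 (0.888 to 8.56), and Napsa, at 918 and 681 CPM, lay between.

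Few control cells stood behind these ratios. Sftpc, Sftpb and Sftpa1 were each found in 3 of 20 control cells, and 1 control cell held 100% of the Sftpd, 95.2% of the Napsa and 76.0% of the Ctsh UMIs. Without the cell richest in member UMIs in each library 9 members were called higher, but not the same ones: Lamp3 was no longer called (log2 ratio 0.41, against the 3-count level), and Napsa became called (3.99). Among cells with at most 2000 UMIs, an alternative chosen after seeing the data because the injured cells were deeper, 6 members were higher and none lower, and the log2 ratio of Sftpc was 5.98. Of these cells, 20 injured and 10 control cells held under 1000 UMIs, and 7 and 4 held 1000 to 2000. The control Sftpc value in this setting rested on 2 counts in 2 cells. Thinned to 500 UMIs a cell, Sftpc was found in 38.9% of 90 injured and in 5% of 20 control AT1-like cells (63.3% and 15% unthinned), Sftpd in 42.2% and 0%, Ctsh in 53.3% and 15%. In B and T cell-like cells, which should lack Sftpc, thinning left it in 0.738% and 0.817%; these cells had held medians of 4559 and 5039 UMIs.

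Within the injured AT1-like cluster the members were spread very unevenly. Sftpc ranged from 0 to 1614 UMIs per cell with a median of 2. No Sftpc was found in 33 of 90 cells, 28 held 1 to 9 UMIs, 16 held 10 to 99 and 13 held 100 or more. The 3 richest cells carried at least 50% of the Sftpc UMIs of the class, and 1 cell carried 25.3%. Sftpa1 was at 0 in 69 cells and reached 150 UMIs, Slc34a2 was at 0 in 64 cells and reached 85 UMIs, and Lamp3 was at 0 in 58 cells. Ctsh was the most widely found member, present in 77 of 90 cells at a median of 18.5 UMIs. Across these 90 cells, which share 1 library and differ in depth, Spearman's rho on log2 levels was 0.67 between Sftpc and Sftpb, 0.48 between Sftpc and Sftpd, 0.44 between Sftpc and Sftpa1 and 0.13 between Sftpc and Lpcat1.

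To describe this spread, the injured AT1-like cells were split by their own Sftpc, so Sftpc itself and genes that vary with it are descriptions here. In 15 cells Sftpc was at 10000 CPM or more, and these held 79.4% of the Sftpc UMIs of the class. Their median depth was 7556 UMIs, deeper than any AT2-like cell. Their summed Sftpc level, 34161 CPM, lay beside the 31687 CPM of injured AT2-like cells, and Slc34a2 stood at 1273 CPM beside 1107 CPM, although 2 of the 15 cells held 160 of its 189 counts and 7 held none. Sftpb and Sftpd stood at 3966 and 4027 CPM, and 2 cells held 328 of the 589 Sftpb and 413 of the 598 Sftpd counts. Sftpa1 stood at 2795 CPM, below the 7403 CPM of the injured and the 25001 CPM of the control AT2-like cells. Of its 415 counts 2 cells held 240, and 7 of the 15 cells held none. In these 15 cells the summed markers had medians of 7705 CPM (AT2), 4721 CPM (AT1) and 7099 CPM (transitional). In injured AT2-like cells these medians were 6342, 1057 and 3011 CPM. Ager, the receptor that marks AT1 cells, stood at 2054 CPM in the 15 cells. It stood at 12037 CPM in control AT1-like cells and at 435 CPM in control AT2-like cells. Of the 305 Ager counts in the 15 cells 1 cell held 166, and 3 cells held none.

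A further 42 injured AT1-like cells had some Sftpc below 10000 CPM, at a summed level of 1678 CPM, and 33 had none. The members parted in these cells. Sftpa1 stood at 146 CPM in both sets and at 81.1 CPM in control AT1-like cells, but 53 of its 54 counts in the 33 cells came from 1 cell, and 31 of the 33 held none. Sftpd kept 2415 CPM in the 42 cells and 980 CPM in the 33 cells without Sftpc, where control AT1-like cells had 178 CPM. Napsa stood at 1095 and 399 CPM, Ctsh at 3045 and 1784 CPM, and Abca3 at 160 and 67.5 CPM. Control AT1-like cells had 681 CPM of Napsa, 1557 CPM of Ctsh and 64.9 CPM of Abca3. In the 33 cells Napsa was thus below the control level, and the intervals of Ctsh and Abca3 overlapped those of the control. Of the control counts 1 cell held 40 of 42 for Napsa and 73 of 96 for Ctsh. Median depth was 15734.5 UMIs in the 42 cells and 2414 UMIs in the 33, and its part in the split was not tested. Krt8, a keratin of the transitional state, stood at 1717 CPM in the 15 cells, 1948 CPM in the 42 and 2356 CPM in the 33, against 860 CPM in control AT1-like cells.

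**Figure D3:**
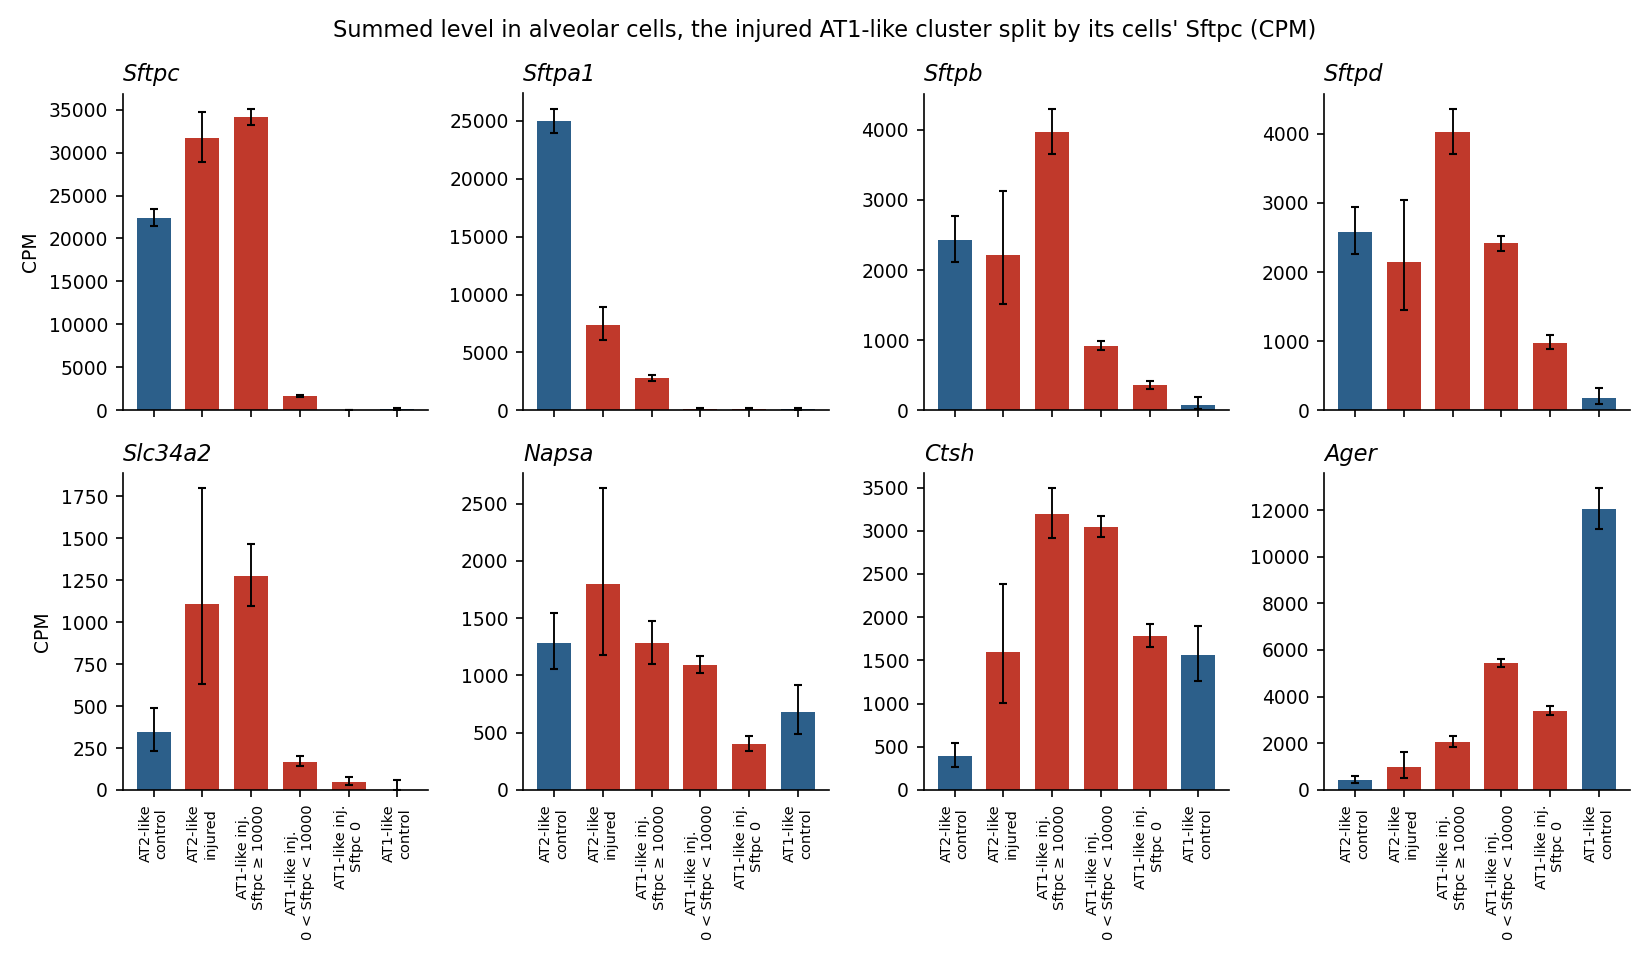
Bars show the summed CPM of 7 members and of the AT1 gene Ager, with exact Poisson 95% intervals, in AT2-like cells, in the injured AT1-like cluster split by its cells' own Sftpc, and in control AT1-like cells; control bars are blue. Sftpa1 falls from left to right more steeply than Sftpb or Sftpd, and Ctsh stands highest in injured AT1-like cells that hold Sftpc.

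With AT2-like and AT1-like cells pooled, as some clusterings did, the picture changed for Sftpc. The 101 injured cells held 1315854 UMIs and the 83 control cells 149041. Of these, 11 injured and 63 control cells came from the AT2-like cluster, so the mix of classes differed. The injured pool had 57 cells deeper than any AT2-like cell and the control pool 4, and summed CPM gives deep cells more weight. Sftpc stood at 5201 CPM against 13204 CPM, 2.54-fold lower (2.41 to 2.67), and Sftpa1 at 524 CPM against 14694 CPM, 28.0-fold lower (25.7 to 30.6). Ctsh was 3.08-fold (2.59 to 3.70), Lpcat1 3.49-fold (2.09 to 6.28) and Abca3 2.47-fold (1.27 to 5.47) higher, and the other 5 members lay between. Thus 3 of 10 members were higher and 2 lower, where 42.2% of 9425 genes were higher and 13.1% lower. With each cell weighted the same, Sftpc was 2.05-fold and Sftpa1 14.9-fold lower. The part of the class mix in these folds was not tested. In UMIs per cell, without division by the total, Sftpc averaged 67.8 in the injured and 23.7 in the control cells, and Sftpa1 averaged 6.83 and 26.4. Sftpc was found in 66.3% (56.2 to 75.4) of injured and 78.3% (67.9 to 86.6) of control alveolar cells, at median depths of 8566 and 1218 UMIs, and Sftpa1 in 27.7% (19.3 to 37.5) and 79.5% (69.2 to 87.6). In this pool Sftpa1 was thus lower in the injured library in CPM, in UMIs per cell and in the share of cells. These measures share the unequal class mix. In the single clusters its direction differed, at 5.52-fold higher in AT1-like and 3.38-fold lower in AT2-like cells. For Sftpc the direction turned with the class border and the scale.

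In secretory-like cells 8 of the 9 members with enough counts were higher in the injured library and none was lower, where 49.1% of all 4754 genes were higher and 10.8% lower. Scgb1a1 alone stood at 446256 CPM (injured) and 581242 CPM (control), so the rest of the transcriptome had unequal room. Sftpb stood at 2672 CPM (2540 to 2810) against 558 CPM (510.2 to 608), 4.79-fold higher (4.33 to 5.31). Sftpd, at 864 and 398 CPM, was 2.17-fold (1.89 to 2.49) and Ctsh, at 256 and 119 CPM, 2.15-fold (1.66 to 2.78) higher. Sftpa1 stood at 1761 and 2149 CPM, within the size rule, and with Scgb1a1 left out of the total, a setting chosen after seeing the data, it was called lower at a log2 ratio of -0.69.

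The members known best from AT2 cells were close to absent from control secretory-like cells. Slc34a2 had 160 counts in the injured and 1 in the control class, a ratio of 258 (45.6 to 10253). Abca3 had 55 and 2 counts (ratio 44.3, 11.7 to 375), Lpcat1 35 and 1 (ratio 56.4, 9.49 to 2292) and Napsa 16 and 4 (ratio 6.45, 2.08 to 26.5). Sftpc stood at 282 CPM (240.04 to 329) against 35.0 CPM (23.9 to 49.4), 8.06-fold higher (5.49 to 12.2), and the control value was 1.83-fold (1.16 to 2.83) that of B and T cell-like cells, or 3.96-fold (2.33 to 6.75) without the 4 reference cells rich in Sftpc. Lamp3 had 0 and 3 counts.

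Few injured secretory-like cells carried those counts. Without the cell richest in member UMIs in each library Sftpd was no longer called (log2 ratio 0.49, 50% of its injured UMIs having come from 1 cell), and 7 members were higher. Slc34a2 was found in 15 of 80 cells, with 47.5% of its UMIs in 1 cell, Abca3 in 11 cells, Lpcat1 in 6 cells with 51.4% in 1, and Sftpc in 17 cells. The 6 cells with Sftpc at 1000 CPM or more held 79.4% of its UMIs. By contrast, Sftpa1 was found in 104 of 118 control cells (88.1%) and in 48 of 80 injured cells (60%), and Sftpb in 71.2% and 56.2%, at median depths of 4979 and 2405 UMIs. Thinned to 500 UMIs a cell, Sftpa1 was found in 50.8% and 27.5% and Sftpb in 20.3% and 25%, and 3 of the members were called higher in summed thinned counts. Ciliated-like cells (17 and 8 cells) held 96 and 0 counts of Sftpd, 55.2% of the injured ones in 1 cell, and 35 and 2 of Abca3.

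Summed over all cells, 7 members were higher in the injured library, 1 was lower and 2 lay between, where 22% of 15729 genes were higher and 17% lower. Slc34a2 was 9.72-fold (7.16 to 13.5) higher, Lamp3 4.57-fold (3.14 to 6.83), Sftpd 4.40-fold (4.05 to 4.79), Sftpb 3.19-fold (2.95 to 3.45), Lpcat1 3.03-fold (2.67 to 3.45), Sftpc 2.74-fold (2.61 to 2.87) and Ctsh 1.89-fold (1.82 to 1.96), and Sftpa1 was 3.09-fold (2.93 to 3.27) lower. With each cell weighted the same, 2 members were higher and 2 lower, and Sftpc turned to a log2 ratio of -0.67.

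The clusters that held the transcripts differed, and the border between the alveolar classes bears on this. AT1-like cells held 85.6% of the injured library's Sftpc UMIs and AT2-like cells 6.14%, whereas AT2-like cells held 88.5% of those of the control library. Of the Sftpc UMIs of injured AT1-like cells, 79.4% lay in the 15 cells at 10000 CPM or more. Those cells had medians of 7705 CPM for AT2 markers and 4721 CPM for AT1 markers, so a change of cell type is not shown. For Lamp3, AT1-like cells held 89.7% in the injured and AT2-like cells 72.7% in the control library. Sftpa1 came mostly from secretory-like cells in the injured library (56.2%), with 32.8% from AT1-like cells, and from AT2-like (48.8%) and secretory-like cells (43.9%) in the control library. Sftpd came from AT1-like cells in the injured (79.9%) and from secretory-like cells in the control library (55.2%). Abca3, Lpcat1, Napsa and Ctsh had most of their UMIs outside the epithelium in both libraries.

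**Figure D4:**
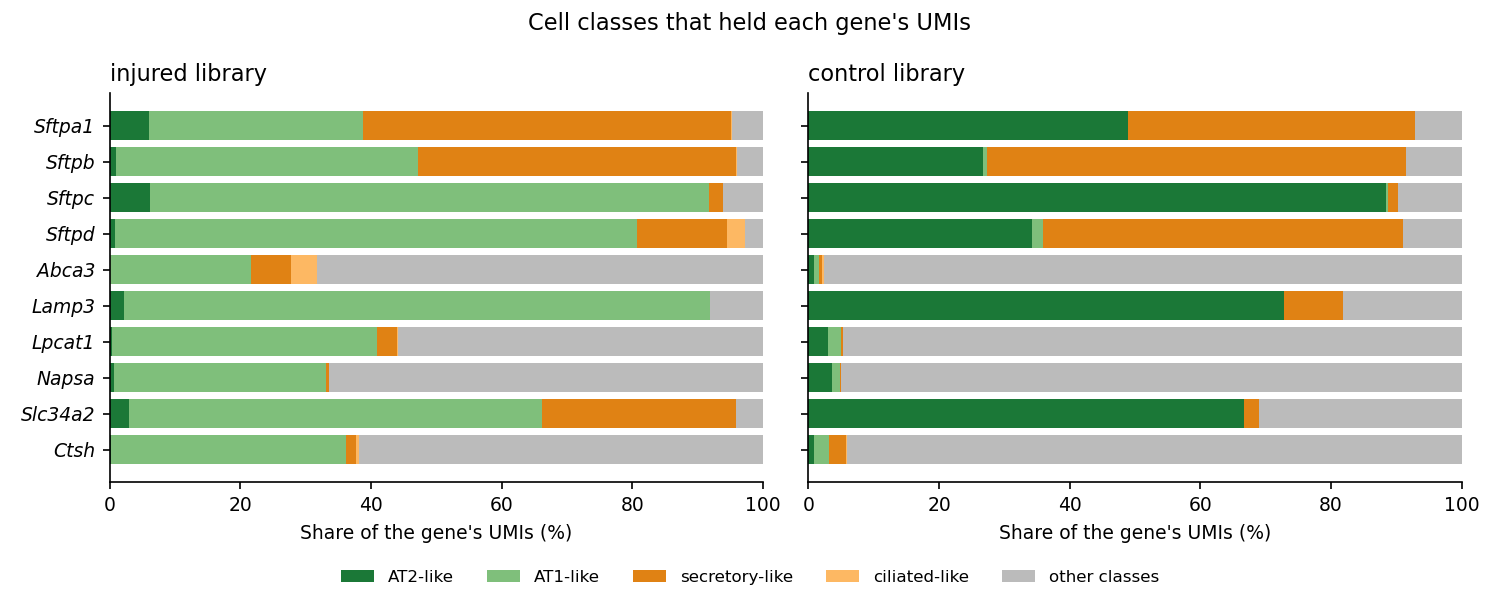
Bars show the share of each member's UMIs, in percent, held by 4 epithelial classes and by all other classes, in each library. Grey dominates for Abca3, Lpcat1, Napsa and Ctsh, while most Sftpc lies in the AT2-like cluster in the control and in the AT1-like cluster in the injured library.

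Outside the epithelium the list fell into members at a low level in every class and members with a level of their own. Sftpc stood at 16.1 CPM (10.3 to 23.9) in B and T cell-like cells of the injured and 19.2 CPM (14.8 to 24.4) of the control library, so that AT2-like cells lay 1970-fold and 1171-fold higher, and without the reference cells rich in Sftpc 2584-fold and 2540-fold. All non-epithelial classes with at least 20 cells lay between 13.4 and 65.5 CPM in the injured and between 4.04 and 38.8 CPM in the control library. The highest of these, interstitial macrophage-like cells of the injured library, had 140 Sftpc counts, of which 100 came from 1 cell of 26554 UMIs that also held 22 Sftpb and 31 Sftpd UMIs. Over all non-epithelial cells Sftpa1 stood at 4.69 CPM (injured) and 21.2 CPM (control), and held 15.4% (12.5 to 18.8) and 59.6% (55.3 to 63.8) of the UMIs of the Sftpa1 and Sftpc pair there. This is the same order as in AT2-like cells, although 5 control cells with at least 10 Sftpa1 UMIs each held 39.1% of the Sftpa1. Slc34a2 had 22 and 14 counts in all non-epithelial cells, and Lamp3 15 and 6. Lamp3, also known as DC-LAMP from human dendritic cells, had 0 counts in 98 injured and 10 control mature dendritic cell-like cells, where 3 counts would stand for 3.35 and 39.3 CPM.

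Ctsh, a lysosomal protease found in many cell types, and Napsa had levels of their own in immune classes. Ctsh was highest in plasmacytoid dendritic cell-like cells, at 1127 CPM (11 cells) and 1558 CPM (7 cells) (injured and control). It stood at 673 and 642 CPM in mature dendritic cell-like, 583 and 593 CPM in classical monocyte-like, 453 and 531 CPM in conventional type 2 dendritic cell (cDC2)-like and 273 and 369 CPM in B cell-like cells. In T cell or ILC2-like cells it was 41.8 and 4.30 CPM. Napsa stood at 919 and 1076 CPM in nonclassical monocyte-like, 649 and 700 CPM in classical monocyte-like and 539 and 512 CPM in B cell-like cells. AT2-like cells had 1799 and 1282 CPM, and T cell or ILC2-like cells 9.65 and 3.77 CPM. The injured nonclassical monocyte-like value rested on 36 counts in 9 cells. In the control library the intervals of nonclassical monocyte-like (992 to 1166) and AT2-like cells (1055 to 1542) overlapped. Within each library the intervals of the B cell class and of the T cell or ILC2 class did not overlap for Ctsh or Napsa, at median depths of 3382 and 4895 UMIs (injured) and 4505 and 5868 UMIs (control).

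Lpcat1 was highest outside the epithelium in mature dendritic cell-like cells, at 154 CPM (129 to 182) and 157 CPM (81.3 to 275). In blood endothelium-like cells it stood at 38.3 and 73.8 CPM. Abca3 was spread over most classes, at 32.3 and 37.3 CPM in alveolar macrophage-like, 37.8 and 26.4 CPM in T cell or ILC2-like and 56.3 and 34.1 CPM in B cell-like cells, and at 13.1 and 8.79 CPM in neutrophil-like cells, and NK cell-like cells held none. In the control library its level outside the epithelium, 36.0 CPM (33.0 to 39.1), was above that of all epithelial cells together, 11.8 CPM (6.26 to 20.1), and close to the 57.2 CPM (18.6 to 134) of AT2-like cells. In the injured library the order of these pooled levels was the reverse, with 34.9 CPM (32.2 to 37.8) outside the epithelium and 140.07 CPM (124 to 157) within it. The pools differed in their mix of classes. Secretory-like cells, at 2.19 CPM of Abca3, held 914716 of 1106055 epithelial UMIs in the control library. AT1-like cells held 1301400 of 2041876 in the injured library. Control AT1-like cells stood at 64.9 CPM (17.7 to 166). The part of the mix in this order was not tested. Abca3, Napsa and Slc34a2 overlap genes on the other strand (Gm25618 and D330041H03Rik, Gm15396, Gm17182), and whether counting used the strand is not given in the sources used here.

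**Figure D5:**
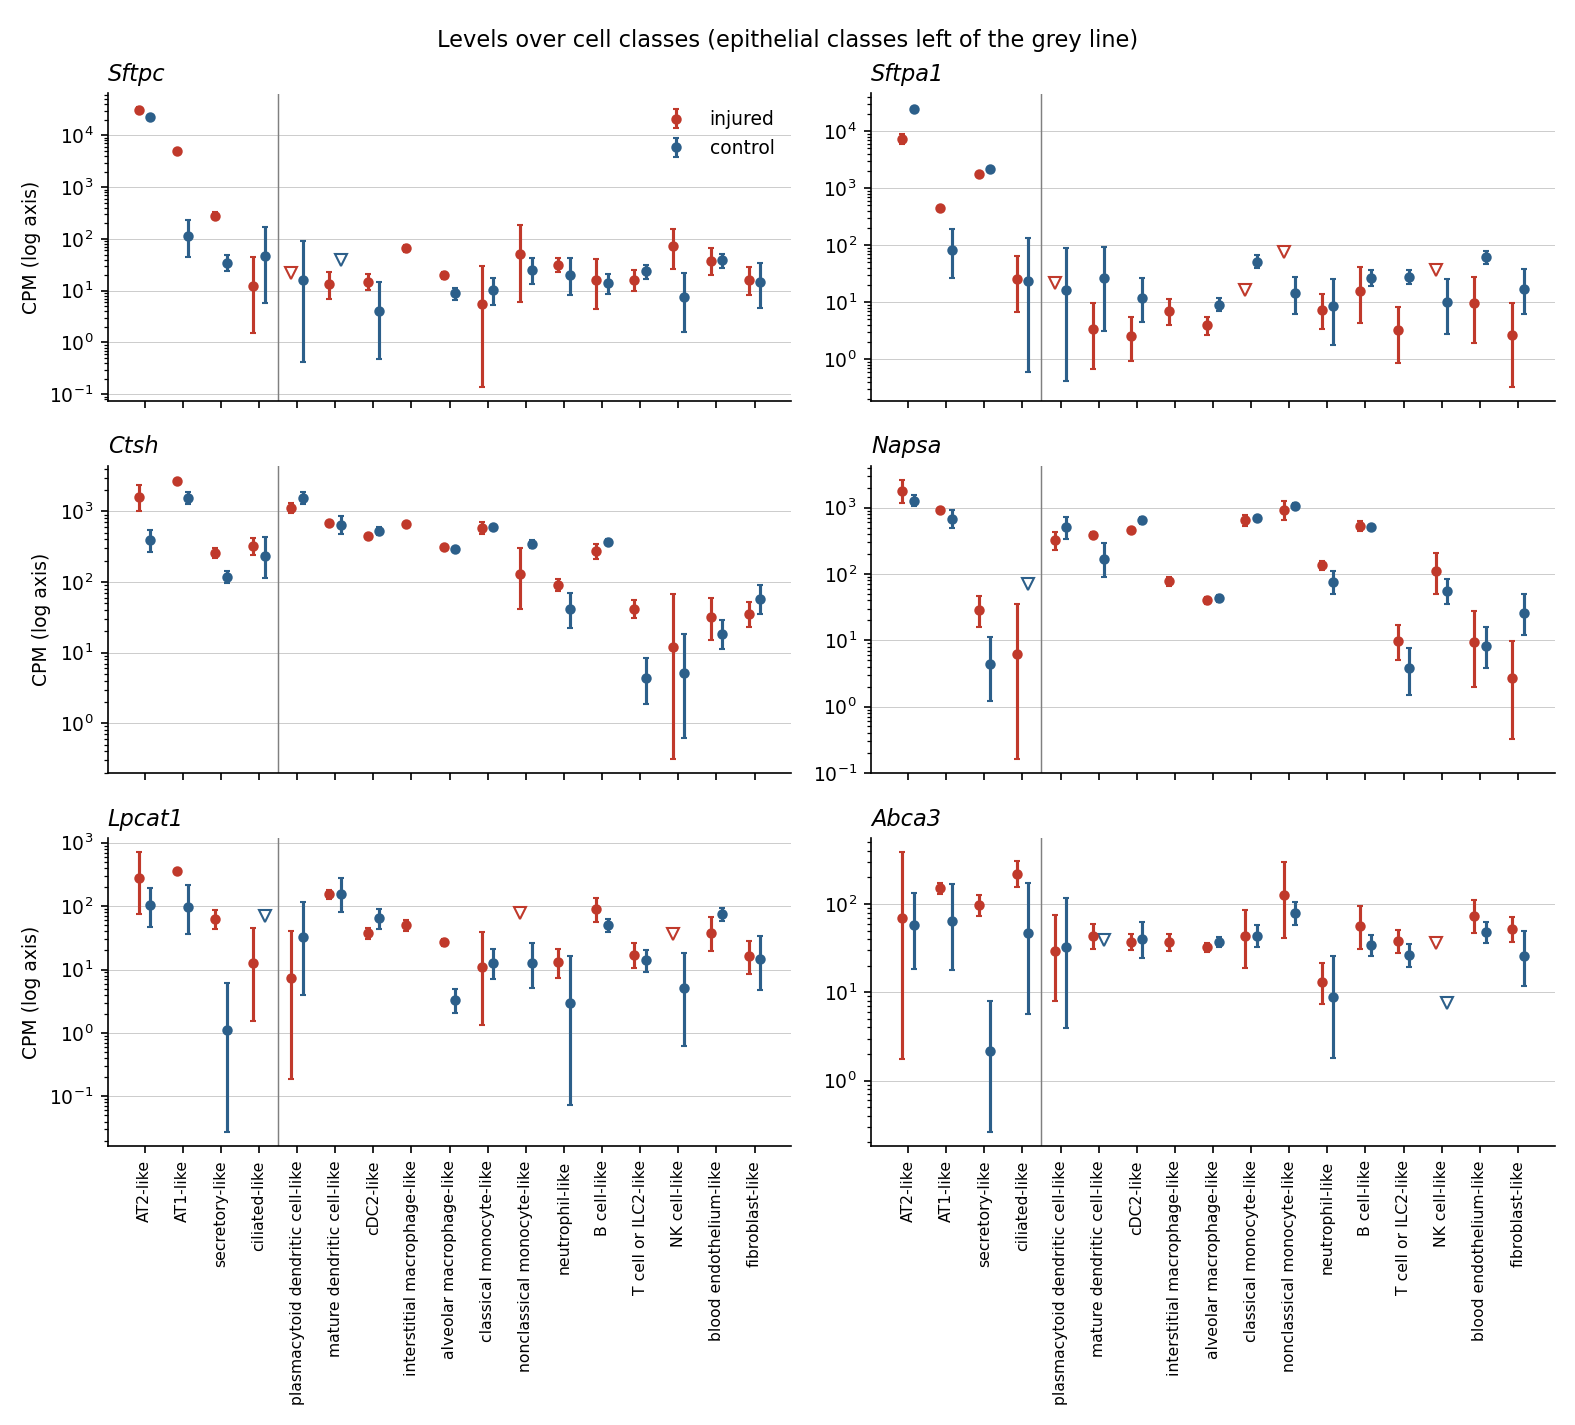
Summed levels in CPM on log axes over 17 classes, injured in red and control in blue, with exact Poisson 95% intervals and open triangles at 3 counts where none was found; classes with under 5 cells in a library are left out. Sftpc and Sftpa1 drop to a low level right of the grey line, whereas Ctsh, Napsa, Lpcat1 and Abca3 do not.

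Alveolar macrophages take up and degrade surfactant. In alveolar macrophage-like cells 4 of the 9 members with enough counts were higher and 1 was lower, where 14.8% of 11793 genes were higher and 21.5% lower; the injured cells lay mainly in cluster 3 (322 of 365) and the control cells in clusters 4 and 19 (302 and 100 of 434). Lpcat1 stood at 26.9 CPM (23.4 to 30.8) against 3.25 CPM (2.03 to 4.92), 8.29-fold higher (5.33 to 13.5), and was found in 37.8% and 4.84% of cells, whose median depths were 19870 and 16690 UMIs. T cell or ILC2-like cells held 16.9 and 14.0 CPM, so the control macrophage level was below that of a lymphocyte class in the same library. Sftpc and Sftpa1 stood at 20.1 and 8.85 CPM and at 3.97 and 9.15 CPM, at or below 1.25-fold of the level in B and T cell-like cells, or at or below 1.64-fold without the reference cells rich in Sftpc. Sftpc was called 2.27-fold (1.68 to 3.11) higher and Sftpa1 2.30-fold lower, and their source in these cells was not tested. The other calls were Sftpb, 1.74-fold (1.07 to 2.87) higher, and Slc34a2, from 8 and 4 counts. Ctsh (308 and 293 CPM), Napsa (39.8 and 42.8 CPM) and Abca3 lay between. Of 14 genes of surfactant clearance, 1 was higher and 4 were lower (median log2 ratio -0.06, against -0.10 for all genes). The scavenger receptor gene Marco was 4.48-fold (4.32 to 4.65) higher, while Cd36, a lipid uptake receptor, was 5.34-fold (4.73 to 6.04), the sterol exporter gene Abcg1 2.30-fold (2.23 to 2.39) and the lipid-sensing factor gene Pparg 2.27-fold (2.04 to 2.53) lower. The fourth, Bach2, had 4 and 6 counts. Marco is also one of the markers used to name this class. It passed as a marker in cluster 3 but not in clusters 4 and 19, so its ratio is not separate from the class name.

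Few other surfactant pathway genes had enough counts in AT2-like cells, where 32.9% of all genes were higher and 19.9% lower, and the share called higher in each list lay near the first of these. Of 16 lipid synthesis genes 3 did, and 1 was higher and 1 lower. Scd1, a fatty acid desaturase, had a ratio of 1.57 (0.783 to 2.94), and Elovl1, a fatty acid elongase, was 5.46-fold lower from 1 and 33 counts (0.914 to 222). Of 18 genes of processing, trafficking and lamellar body biogenesis 6 had enough counts, and Muc1, a membrane mucin, was 6.05-fold (2.90 to 12.6) and Prdx6, which has phospholipase activity in lung, 2.12-fold (1.04 to 4.09) higher. Of 14 regulators 3 had enough, with Cebpa, a transcription factor of surfactant genes, higher from 4 and 12 counts. Scd1, Elovl1 and Muc1 are also among the AT2 markers that named this cluster. Their values here are not separate from the class name.

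In AT1-like cells, where 18.2% of all genes were higher and 24% lower, 7 of 14 lipid synthesis genes with enough counts were higher and 2 lower (median log2 ratio 0.89). Scd1 stood at 2063 CPM against 276 CPM, 7.48-fold higher (4.66 to 12.9). Of 17 processing and trafficking genes 7 were higher and 3 lower (median 0.24), with Muc1 2.62-fold (1.65 to 4.44) higher and Prdx6 3.82-fold (3.29 to 4.42) lower. Of 14 regulators 1 was higher and 3 lower (median -0.23), and Nkx2-1, the lineage factor that binds surfactant promoters, stood at 586 and 827 CPM. The median over all genes in this class was -0.11. Scd1 and Muc1 also belong to the AT2 markers summed above for this class, so they are not separate from those sums.

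Over 24 pairs of a class and a library, the levels most like that of Sftpc among 9864 genes outside the list were those of S100g, Kcne2 and Irx3, with Pearson's r of 0.94, 0.93 and 0.92 on log2(CPM + 10), and Lamp3, a member, had 0.93. Outside the list, those most like Sftpa1 were Smim6, Sfta2 and Car8 (0.96 each), and those most like Lamp3 were Ppp1r14c, Etv5 and Kcne2 (0.91 each). Ctsh, which had levels of its own in many classes, was most like another member, Napsa (0.76), and outside the list Alcam, Adora2b and Siva1 came next (0.73, 0.71 and 0.70). Only classes with at least 20 cells in a library entered, so the 11 injured AT2-like cells did not. S100g, Etv5 and Ppp1r14c also belong to the AT2 markers used to name classes. The points share 2 libraries, and these correlations are descriptions.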

How the data were processed

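Both 10x 3′ libraries of mouse lung were analysed (1 per group), and groups follow the titles. Per the file headers, Cell Ranger 4.0.0 produced the matrices; the deposited values are whole-number UMI counts with no normalization. Per the submitters' processing notes, the series also used featureCounts 1.6.3, DESeq2 (1.26.0, 1.28.1) and STAR 2.7.2c, with builds GRCm38 and mm10; their role for these libraries is not given in the sources used here. Of 32285 gene IDs, 32158 were found in GENCODE M21.

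Barcodes (2702 injured, 2674 control) were kept with at least 500 UMIs, at least 200 genes and at most 15% mitochondrial UMIs. Doublets were scored against simulated ones over 40 neighbours and the top 0.8% per 1000 cells removed (44 and 44). The 2000 most variable genes, without the 10 members, gave 30 principal components and a shared-neighbour graph (20 neighbours), clustered with leidenalg 0.10.2 at resolution 1, without batch integration. A cluster was named from at least 3 markers that were 3-fold above other cells and found in 20% of its cells. After the clusters were seen, AT1 and transitional markers were joined, as were T cell and ILC2 markers.

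Counts were summed per class and library and given as CPM. Intervals are exact (Poisson, binomial, conditional for ratios) at 95%, and a count of 0 was bounded at 3. The calls were tested on simulated counts with larger fold changes and counting error only. This does not cover changes near 1.5-fold or counts held by few cells. No test across samples was possible with 1 library per group, and p-values were not computed. All 10 members are named; other genes are at most 4 with the highest and 4 with the lowest ratio per pathway list among those with at least 20 counts, the 3 genes most like each of 4 members, and markers. Cebpa, Bach2, Nkx2-1 and the AT1-like values of the lists were picked with their values in view, like the split of AT1-like cells at 10000 CPM of Sftpc. The members, lists and rules were chosen with earlier results of these data known. Python 3.11.15, numpy 2.4.6 and scipy 1.17.1 were used.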

Additional observations from a re-analysis of the deposited data

Results flagged for a closer look

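Sftpa1 ran in opposite directions in the alveolar classes: the log2 ratio of injured to control was 2.47 in AT1-like cells and -1.76 in AT2-like cells. The difference between the classes was not tested, since each group has 1 library. The AT1-like value rests on 5 control counts from 3 cells, and with both classes together the ratio was 28.0-fold lower in the injured library.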

How the results depend on the processing

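No paired analysis was possible because each group has 1 library and the labels give no replicate numbers. Of 662 ratios of single members under other settings, 546 stayed inside the counting interval of the main ratio, 105 moved out of it and 11 reversed. Of the ratios of called members, 122 of 131 kept their direction in AT1-like cells (9 reversed, 114 kept the call), 48 of 48 in AT2-like cells (47), 124 of 124 in secretory-like cells (119), 69 of 70 in alveolar macrophage-like cells (66) and 111 of 112 in the whole library (106). AT2-like cells gave no value at resolution 0.5, with a mitochondrial limit of 10% or with no minimum of genes (no such cluster), or with each library clustered alone (0 injured cells), and AT1-like cells gave none with no minimum of genes (40 and 1 cells). Resolution 0.5 and the 10% limit put AT2 cells into the AT1-like cluster, where 3 members were then higher and 2 lower in both settings; the log2 ratios were -4.81 and -5.18 for Sftpa1, -1.34 and -1.56 for Sftpc, -0.38 and -0.52 for Sftpb and -0.32 and -0.37 for Lamp3. In AT2-like cells the number higher became 6 with the members among the variable genes (19 and 63 cells), 5 with a mitochondrial limit of 25% and 5 with doublets kept, and the number lower became 2 with each cell weighted the same, 3 without the cell richest in member UMIs and 2 after thinning to 500 UMIs. In secretory-like cells 1 member became lower with a 25% limit, with median-of-ratios size factors and without Scgb1a1 in the total, and 3 were higher after thinning. In alveolar macrophage-like cells the number lower became 2, and Sftpb turned to -0.20, with each cell weighted the same, and none was higher (0) after thinning. In the whole library 2 were higher and 2 lower with each cell weighted the same, and Sftpc turned to -0.67. Abca3 in AT1-like cells turned to -0.17 after thinning, at too few counts for a call. The settings with thinning, with at most 2000 UMIs, without Scgb1a1 and without the reference cells rich in Sftpc were chosen after seeing the data. The cause of these changes was not tested. The control AT1-like class (61645 UMIs) and the injured AT2-like class (14454 UMIs) limit what can be seen.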
